A study of Homo sapiens with 9 samples.

Results

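The regions described here are EZH2 peaks that were listed in LNCaP cells after knockdown of EZH2 and not in control cells. They are the peaks of the knockdown list on chromosomes 1 to 22 and X that share no base with a control EZH2 peak and lie more than 2 Mb from the longest stretch of their chromosome without a region in any of the 6 lists. Of the 9493 peaks of the knockdown list, 3648 met this rule. A further 4630 overlapped a control peak and are called shared peaks below. Another 852 lay inside the margin of 2 Mb, 377 of them without a control peak, and 363 lay on other sequences of the build. Among the 8278 peaks considered, 44.1% were thus listed in knockdown alone (95% exact binomial interval 43.0 to 45.1). The members were chosen by where peaks were called in the 2 EZH2 lists, so this share and their EZH2 tags, scores, folds and gaps to control are descriptions and were not tested.

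In Polycomb repressive complex 2, EZH2 is the enzyme: it adds methyl groups to lysine 27 of histone H3, and the trimethylated form (H3K27me3) marks silenced chromatin. The complex also binds its own mark, and in this way holds broad silenced domains. Acetylation of the same lysine (H3K27ac) excludes the methyl mark on that residue and marks promoters and enhancers in use. Activating roles of EZH2 that need neither Polycomb nor methylation are named in the title of the series, so each EZH2 peak was set beside both marks.

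LNCaP is an established, androgen-responsive human prostate cancer cell line of luminal type. Cells were infected with the lentiviral vector labelled plko.1 (control) or with a lentivirus carrying a hairpin against EZH2 (shEZH2), and were fixed 2 to 3 days later with 1% paraformaldehyde. Chromatin was sheared to 200 to 500 bp and precipitated with antibodies against EZH2, H3K27ac or H3K27me3. The labels give the same EZH2 antibody and lot for both groups, and name neither the hairpin sequence nor the knockdown reached. Each of the 6 groups held 1 library, and the other 3 samples were not used here. There were 13331155 tags in the control EZH2 library, 14514395 in the shEZH2 one, and between 17438009 and 33289172 in those of the histone marks. No replicate cultures were present, so no spread between them was known. Intervals below cover counting error over peaks or tags only.

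What a listing means depended on the caller's settings. By the headers, a control EZH2 peak was a window of 183 bp with a threshold of 9 tags, and a shEZH2 peak a window of 151 bp with a threshold of 10. The lowest deposited scores, 9 and 10, equal these thresholds. The deposited normalised tags, scaled by the authors to 10000000 per library, run below the thresholds on that scale (6.75 and 6.89), down to 5.25 in control and 4.82 in shEZH2. Both also had to stand 4-fold above the surrounding 10 kb. The lists give no value for control at positions that were not called, so a peak listed in knockdown alone may have held control tags below these limits. Positions are given in hg19, counted from 1. At the edge of the rule, 7 members touched a control peak without overlap and held 6.2 to 18.6 normalised tags. Another 84 members lay 1 to 10 bp away, with a median of 10.3 tags, and 90 shared peaks overlapped by only 1 to 10 bp, with a median of 9.98. The nearest members to the margin of 2 Mb were chr1:144539792-144539942 with 5.51 tags and chr19:29759339-29759489 with 8.96. The nearest peaks left out by it were chr16:33287214-33287364 with 9.65 tags and chr7:56032251-56032401 with 11.7.

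Most of the peaks listed in knockdown alone were weak. Their median was 8.96 normalised tags, with an interquartile range of 7.58 to 11 and a highest value of 140.6. The shared peaks had a median of 10.3, an interquartile range of 8.27 to 14.5 and a highest value of 1152.6. A score of 10 or 11, the lowest in the list, was held by 1973 members (54.1%) and by 1522 shared peaks (32.9%). The share of peaks listed in knockdown alone fell with score, from 59.3% (57.2 to 61.4) at a score of 10 to 35.3% (30.7 to 40.1) at 15 and 16.7% (12.8 to 21.2) above 30. Few members were strong: 372 (10.2%) held at least 15 normalised tags and 55 (1.51%) at least 25. For shared peaks these numbers were 1053 (22.7%) and 289 (6.24%). Members also rose less far above their surroundings, with a median of 7.09-fold (6.96 to 7.25) against 8.92-fold (8.77 to 9.08) for shared peaks.

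Most of these peaks lay beside an EZH2 peak of control cells. The median gap to the nearest control peak was 536 bp (478 to 597), and the quartiles were 152 and 9500 bp. A gap of at most 1 kb, called displaced below, was found for 2076 members (56.9%, 55.3 to 58.5). A gap of over 1 kb and up to 10 kb, called near, was found for 688 (18.9%, 17.6 to 20.2). The other 884 (24.2%, 22.8 to 25.7) had no control peak within 10 kb and are called isolated. Of these, 162 had none within 100 kb. Most peaks listed in knockdown alone thus lay within 10 kb of a site already listed in control.

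**Figure D1:**
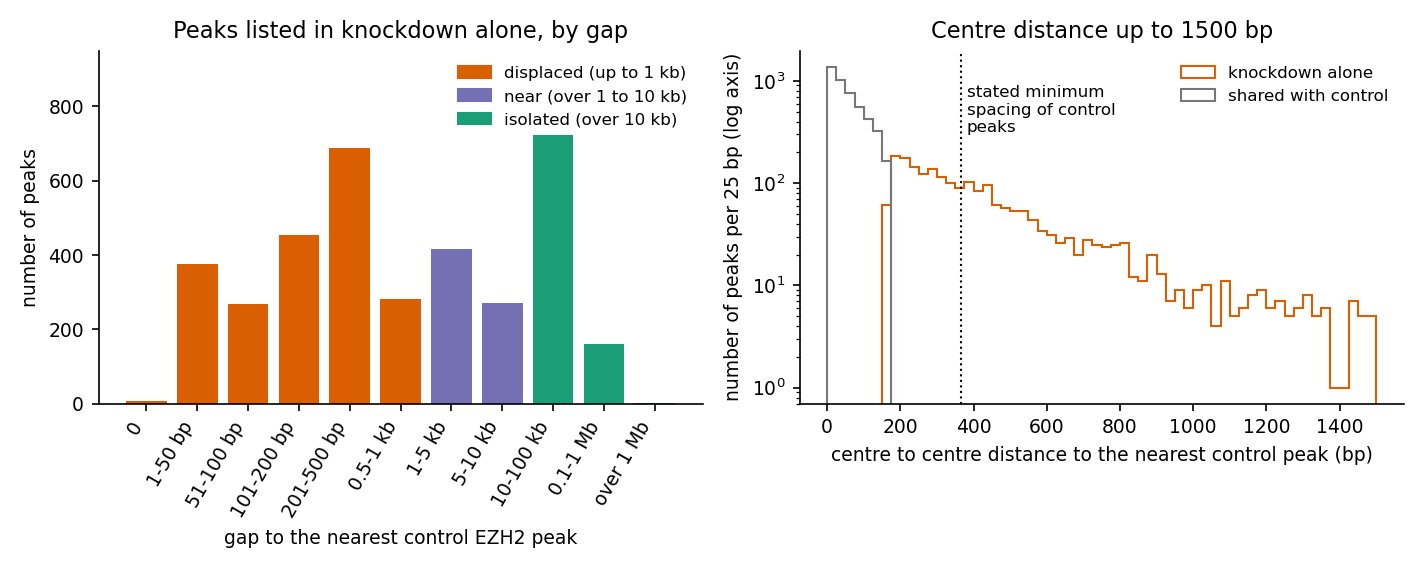
Left: number of EZH2 peaks listed in knockdown alone by the gap to the nearest control EZH2 peak, in bins of unequal width, coloured by class. Right: centre to centre distance at short range for these peaks and for shared peaks, with a dotted line at 366 bp, the stated minimum spacing of control peaks. 2076 peaks lie within 1 kb, and 1097 lie left of the line.

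Many displaced members lay closer to a control peak than the control list usually placed its own peaks. Its header gives a minimum distance of 366 bp between peaks, although 46 of 22993 neighbouring pairs in its list lay closer. The centres of 1097 members, 30.1% of all and 52.8% of the displaced, lay closer than 366 bp to a control peak centre. Without them, 38.4% (36.5 to 40.3) of 2551 members were displaced and 34.7% (32.8 to 36.5) isolated.

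The control neighbour of a displaced peak was usually not called again itself, as held for most control EZH2 peaks. Away from the gaps, 16767 control peaks were not called again, and 4629 lay under shared peaks. No shEZH2 peak overlapped the neighbour of 1460 displaced members (70.3%, 68.3 to 72.3), so that the knockdown list had a peak beside the control site and none on it. For the other 616 (29.7%) the control site was called again and the member was a further peak beside it. These members lay farther out, at a median gap of 298 bp against 124 bp, or 465 and 291 bp between centres. The shEZH2 header gives a minimum distance of 302 bp between its own peaks, though 17 of 9431 neighbouring pairs lay closer. A member near a control site thus leaves little room for a second shEZH2 peak on it. How far this limit set the contrast and the 70.3% was not tested. The 2076 displaced members shared 1903 control neighbours, of which 158 had more than 1 displaced member.

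Displaced peaks held fewer tags than the control peaks they lay beside. The median was 9.65 normalised tags in the member and 18.0 in its control neighbour, or 63.9 and 98.4 per kb of window. The member held more tags in 188 of 2076 pairs (9.06%), and more per kb in 410 (19.7%). Where the neighbour was called again, the medians were 10.3 and 29.3, and the member held more tags in 7 of 616 pairs. Where it was not, they were 9.65 and 15, and the member held more in 181 of 1460. The 2 windows differ in position, so this is no measure of loss at 1 site. By the headers, 3.62% of the control EZH2 tags and 1.74% of the shEZH2 ones lay in peaks. Shared peaks were not set beside their control peaks in this way, so lower tags are not shown to be particular to displaced members.

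**Figure D2:**
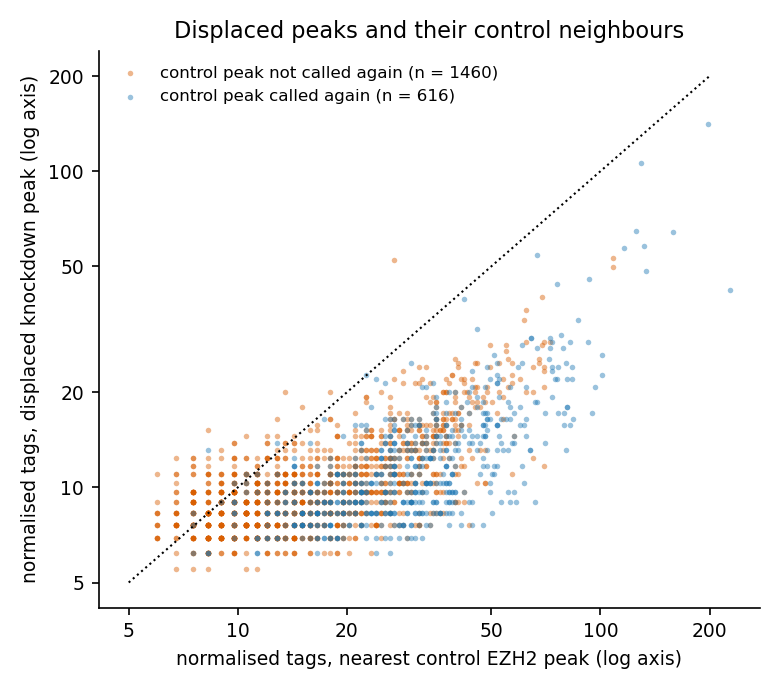
Normalised tags of each displaced knockdown peak (vertical, log axis) against its nearest control EZH2 peak (horizontal, log axis), coloured by whether that control peak was called again. The dotted line marks equal tags, and 188 of 2076 points lie above it.

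The EZH2 peaks of both lists were also counted around each member, with the member itself included. Within 10 kb of a member's centre the shEZH2 list held more EZH2 peaks than the control list in 1925 cases (52.8%), equal numbers in 1201 (32.9%) and fewer in 522 (14.3%). Around shared peaks these shares were 15.6%, 55.7% and 28.7%. Choosing peaks with no control overlap tilts this count towards the knockdown list. In 771 cases (21.1%) the member was the only EZH2 peak of either list there. Another member lay within 10 kb of 1019 members (27.9%).

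By the marks of control cells, the members fell into a large H3K27me3 group and a smaller H3K27ac group. An H3K27me3 region of the control list held 2105 of the 3648 members (57.7%, 56.1 to 59.3), beside 60.5% of all 8278 shEZH2 peaks considered. An H3K27ac region held 883 (24.2%, 22.8 to 25.6), beside 28.0% of all considered. H3K27me3 alone was found at 2061 members, H3K27ac alone at 839, both at 44 and neither at 704 (19.3%). The comparison values include the members themselves.

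The groups differed in strength and in setting, among members and shared peaks alike. Members on H3K27me3 alone had a median of 9.65 tags and stood 6.0-fold (5.85 to 6.11) above their surroundings. Members on H3K27ac alone had fewer tags, 8.27, but stood 9.78-fold (9.49 to 10.25) above them. Those with neither mark had 8.27 tags and 8.05-fold (7.76 to 8.46). Another shEZH2 EZH2 peak lay within 10 kb of 65.5% (63.4 to 67.6) of the H3K27me3 members, 21.6% (18.8 to 24.5) of the H3K27ac members and 31.2% (27.8 to 34.8) of those with neither mark. Shared peaks on H3K27me3 alone, H3K27ac alone and neither mark had medians of 11.7, 8.96 and 9.65 tags. They stood 7.83-fold, 10.87-fold and 9.82-fold above their surroundings, and 59.8%, 15.6% and 28.8% had another shEZH2 peak within 10 kb. Strong peaks lay mostly on H3K27me3 among members and shared peaks alike: of the 372 members with at least 15 tags, 342 (91.9%, 88.7 to 94.5) lay in a control H3K27me3 region and 27 (7.26%) in an H3K27ac region. Of the 1053 shared peaks with as many tags, 945 (89.7%, 87.8 to 91.5) lay in a control H3K27me3 region.

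The marks of members differed with their distance from control EZH2 peaks. Of displaced members 69.7% (67.6 to 71.6) lay on control H3K27me3, of near members 59.4% (55.7 to 63.1) and of isolated members 28.3% (25.3 to 31.4). The difference between displaced and isolated members was 41.4 percentage points (Newcombe interval 37.7 to 44.8). It was 28.7 points (SE 1.98) when members of equal score were compared. H3K27ac went the other way, with 22.4% (20.6 to 24.2) of displaced, 16.1% (13.5 to 19.1) of near and 34.8% (31.7 to 38.1) of isolated members. The difference between displaced and isolated members was -12.5 points (-16.1 to -8.91), and -4.52 (SE 2.01) at equal score. No region of any of the 4 histone lists held 1.59% of displaced, 10.0% of near and 19.5% (16.9 to 22.2) of isolated members.

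**Figure D3:**
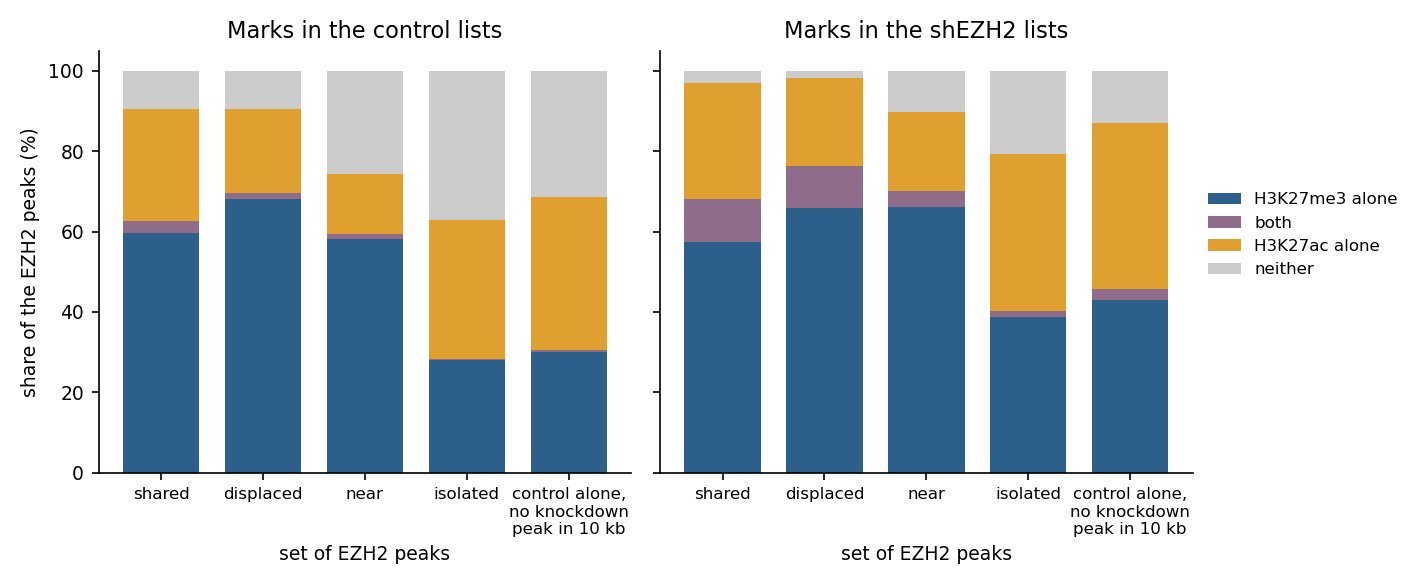
Share of EZH2 peaks (%) on H3K27me3 alone, both marks, H3K27ac alone or neither, by the control lists (left) and the shEZH2 lists (right). The bars are shared peaks, the displaced, near and isolated peaks listed in knockdown alone, and control peaks with no shEZH2 peak within 10 kb. On the left, H3K27me3 alone falls from 68.1% of displaced to 28.1% of isolated peaks.

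Set against shared peaks, members were less often on H3K27ac in both lists. The share on control H3K27ac was 24.2% for members and 30.9% for shared peaks, a difference of -6.70 points (-8.62 to -4.77), and -12.9 (SE 0.966) at equal score. In the shEZH2 list the difference was -6.90 points (-8.96 to -4.82), and -12.7 (SE 1.04) at equal score. For control H3K27me3 the shares were 57.7% and 62.6%, a difference of -4.93 points (-7.05 to -2.81). At equal score this difference changed sign, to 5.01 points (SE 1.02), so the lower H3K27me3 share of members was not seen among peaks of like strength. Displaced members by themselves had the higher H3K27me3 share, 7.02 points (4.58 to 9.41) above shared peaks and 11.5 (SE 1.14) at equal score. For isolated members the difference was -34.4 points (-37.5 to -31.0), and -16.3 (SE 1.78) at equal score. Their control H3K27ac share was 3.93 points (0.583 to 7.39) above that of shared peaks, but -9.42 points (SE 1.87) from it at equal score. Members with no region in any histone list made up 7.51% (6.68 to 8.41), against 2.68% (2.23 to 3.18) of shared peaks.

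Isolated members were also set beside control peaks that had no shEZH2 peak nearby. Of the 16767 control EZH2 peaks away from the gaps that were not called again, 12808 had no shEZH2 peak within 10 kb. Control H3K27me3 held 30.5% of these and 28.3% of isolated members, a difference of -2.19 points (-5.17 to 0.966). The shEZH2 list of H3K27me3 held 45.8% and 40.2%, a difference of -5.63 points (-8.92 to -2.25). Control H3K27ac held 38.6% and 34.8%, a difference of -3.72 points (-6.90 to -0.412), and shEZH2 H3K27ac 44.1% and 40.7%, a difference of -3.33 points (-6.63 to 0.0562). Isolated members lay outside all 4 histone lists more often, by 6.95 points (4.41 to 9.75). None of these differences was taken at equal score. The 2 sets came from lists with unlike thresholds and windows, 151 bp for members and 183 bp for control peaks.

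Members with a mark in control mostly had the same mark in the shEZH2 lists, and shared peaks did so at nearby rates. Of 2061 members on control H3K27me3 alone, 1907 (92.5%) lay on shEZH2 H3K27me3 alone and 142 (6.89%) on both marks. Of 839 on control H3K27ac alone, 801 (95.5%) lay on shEZH2 H3K27ac alone and 30 on both. For shared peaks these shares were 90.5% (89.3 to 91.5) for H3K27me3 alone and 95.8% (94.6 to 96.8) for H3K27ac alone. A move from one mark alone to the other alone was listed for 4 members, 3 from H3K27me3 to H3K27ac and 1 the other way. Of the 704 members with neither mark in control, 254 (36.1%, 32.5 to 39.8) lay on shEZH2 H3K27me3 alone, 132 (18.8%, 15.9 to 21.8) on shEZH2 H3K27ac alone and 44 on both, and 274 (38.9%, 35.3 to 42.6) had no region in any list. Of the 441 shared peaks with neither mark in control, 34.2% (29.8 to 38.9) lay on shEZH2 H3K27me3 alone, 21.1% (17.4 to 25.2) on shEZH2 H3K27ac alone and 28.1% (24.0 to 32.6) in no list. The 172 isolated members among these 274 outnumbered the 69 near and the 33 displaced ones. In all, 2422 members (66.4%, 64.8 to 67.9) lay in a shEZH2 H3K27me3 region, beside 67.3% of all 8278 peaks considered, and 1195 (32.8%, 31.2 to 34.3) in a shEZH2 H3K27ac region, beside 36.6%. The shEZH2 regions were called with wider windows and at a lower tag limit per kb. Their median width was 1535 bp for H3K27me3 and 1831 bp for H3K27ac, against 212 and 428 bp in control. By distance, shEZH2 H3K27me3 held 76.3% of displaced, 70.1% of near and 40.2% of isolated members, and shEZH2 H3K27ac held 32.4%, 23.7% and 40.7%. The H3K27ac difference between displaced and isolated members was -8.35 points (-12.2 to -4.56) here, and 0.086 (SE 2.10) at equal score. A region in both lists does not show an equal amount of the mark.

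H3K27me3 was listed in shEZH2 only at 329 members, and such sites occurred among shared peaks too. The lists had unlike limits. From the headers, the H3K27me3 limit came to 26.0 normalised tags per kb of window in control and 9.53 in shEZH2. For H3K27ac these limits were 34.4 and 9.47. A listing in shEZH2 only is thus no measure of a gain in the mark. Neither mark in control was found at 19.3% of members and 9.52% of shared peaks. Of these, 36.1% and 34.2% lay on shEZH2 H3K27me3 alone, and 6.25% and 16.6% on both marks. For 219 of the 329 members (66.6%, 61.2 to 71.6) a control H3K27me3 region lay within 1 kb. The shEZH2 region itself touched a control region in 242 cases. These regions had a median of 56.4 tags over 3425 bp. H3K27ac was listed in shEZH2 only at 321 members, and again at shared peaks too. Of peaks on control H3K27me3 alone, 6.89% of members and 9.10% of shared peaks lay on both shEZH2 marks. With neither mark in control, 18.8% of members and 21.1% of shared peaks lay on shEZH2 H3K27ac alone. For 134 of the 321 members (41.7%) a control H3K27ac region lay within 1 kb, and the shEZH2 region touched a control region in 142 cases. These regions were weak, at a median of 21.6 tags over 1511 bp, where the median of all members' shEZH2 H3K27ac regions was 173 tags over 2889 bp. Their median density was 14.3 tags per kb, again below the control limit.

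Control histone regions that held members were, at the median, wider and richer in tags than their whole lists, as were those that held shared peaks. Control H3K27me3 regions with a member had a median width of 1594 bp and 66.4 normalised tags, where the whole list had 212 bp and 6.31. Of the 2105 members on control H3K27me3, 1574 (74.8%, 72.9 to 76.6) lay among the top 10% of that list by tags, beside 75.6% (73.9 to 77.1) of the shared peaks on it. For displaced members this was 82.7% (80.7 to 84.6) and for isolated members 49.6% (43.2 to 56.0). Control H3K27ac regions with a member had a median of 192 tags over 1520 bp, where the whole list had 19.5 over 428 bp. Of these 883 members 45.2% (41.9 to 48.5) lay among the top 10%, beside 42.8% (40.2 to 45.4) of shared peaks. Wide regions offer more room for a peak, which these shares do not allow for.

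The 10 members with most tags all had a control EZH2 peak within 1560 bp, and 9 of them were displaced. All but 1 held fewer tags than that control peak. The strongest, chr2:89878424-89878574, held 140.6 tags (exact Poisson interval 122 to 161) and was 4.21-fold above its surroundings, just over the limit of 4. The control peak 490 bp away held 198.0 tags and was called again. Both marks were listed there in both groups. The next, chr4:68265944-68266094, held 106.1 tags (90.0 to 124) beside a control peak of 129.8 tags that was also called again. It too had both marks in both groups, and its clonal fold of 1.94 was close to the limit of 2 at which the caller drops a peak for tags piled on few positions.

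A single stretch of chromosome 8, from 86.5 to 86.9 Mb and singled out after its values were seen, held 7 of the 18 members with at least 40 tags. They held 45.5 to 64.8 tags and stood only 4.18-fold to 6.13-fold above their surroundings. All 7 were displaced, lay on control H3K27me3 without control H3K27ac, and had an H3K27ac region in shEZH2. The shared peaks of this stretch also lay on control H3K27me3 without control H3K27ac, at similarly low folds. Nearly all of those shared peaks had an H3K27ac region in shEZH2 too, so these marks were not particular to members. The shEZH2 list had 23 EZH2 peaks there and the control list 27. At chr8:86803147-86803297, the strongest of the 7 members, the peak held 64.8 tags (52.3 to 79.3) and the control peak 135 bp away 125.3. Its H3K27me3 region held 1308.2 tags over 11948 bp in control and 13810.8 over 119429 bp in shEZH2, and its H3K27ac region in shEZH2 held 39.2 tags over 3715 bp.

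On chromosome 5, the 3 strongest members outside all histone lists lay within 4 kb of each other. The peaks chr5:134259800-134259950, chr5:134261569-134261719 and chr5:134263383-134263533 held 52.4, 39.3 and 54.4 tags. Within 10 kb of each the control list had 4 EZH2 peaks and the shEZH2 list 6. The first member held more tags than its control neighbour, with 27 in control, and that neighbour was not called again. The other 2 members held fewer than their neighbours, with 42.0 and 66.8 in control, and those were called again.

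Members with many tags and a single mark in the control lists show both kinds of site. At chr10:1281515-1281665 the member held 64.1 EZH2 tags (51.7 to 78.5) and the control peak 390 bp away 159.0. The H3K27me3 region there held 220.5 tags over 3198 bp in control and 220.6 over 6688 bp in shEZH2. H3K27ac was listed only in shEZH2, with 20.7 tags. On H3K27ac, chr7:128578048-128578198 held 20 EZH2 tags (13.4 to 28.7), stood 18.19-fold above its surroundings and lay 24087 bp from the nearest control EZH2 peak. Its H3K27ac region held 47.6 tags over 463 bp in control and 140.7 over 2199 bp in shEZH2. At chr6:157731883-157732033 the member held 19.3 tags, 65 bp from a control peak of 22.5 tags that was not called again. An H3K27ac region lay there in both groups, with 36.7 tags over 613 bp in control and 105.1 over 5623 bp in shEZH2. An H3K27me3 region of 13.7 tags over 1001 bp was listed in shEZH2 only. The shEZH2 regions were called with wider windows, so a larger tag total is no measure of a gain in the mark.

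The members that touched a control peak were of middling strength. The strongest of these 7, chr1:2560751-2560901, held 18.6 tags beside 22.5 in the control peak. Its H3K27me3 region held 149.3 tags over 3371 bp in control and 202.4 over 5274 bp in shEZH2. At chr18:5895912-5896062 the values were 14.5 and 32.3 EZH2 tags. The H3K27me3 region there held 86.2 tags over 1876 bp in control and 303.7 over 11222 bp in shEZH2. None of the 7 touched control peaks was called again. Their centres lay 167 bp from those of the members, inside the stated 302 bp spacing of shEZH2 peaks. On control H3K27me3 lay 6 of the 7, and on control H3K27ac the other one, chr17:29877332-29877482, with 7.58 tags beside 7.5.

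The strongest members with H3K27me3 in the shEZH2 list only lay on chromosomes 2, 5, 6 and 11. At chr2:87656732-87656882 the member held 31.7 tags, 488 bp from a control peak of 45.8, with a shEZH2 H3K27me3 region of 30.9 tags over 1920 bp and H3K27ac in both groups. At chr11:43964027-43964177 and chr11:2160067-2160217 neither mark was listed in control. Their shEZH2 H3K27me3 regions were wide, with 245.8 tags over 8321 bp and 862.4 over 24612 bp. In both cases the control EZH2 neighbour, of 65.3 and 39.8 tags, was not called again.

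Isolated members stood further above their surroundings than the others but rested on few tags. Their median was 8.27 tags and 9.5-fold (9.19 to 9.91), against 9.65 tags and 7.04-fold (6.89 to 7.25) for displaced and 8.96 tags and 5.67-fold (5.47 to 5.84) for near members. A score of 10 or 11 was held by 671 of 884 (75.9%). At least 15 tags were held by 23, of which 16 lay on control H3K27me3 and 5 on control H3K27ac. The strongest, chr8:58118506-58118656, held 35.1 tags (26.2 to 46.2) with both marks in both groups and a control peak of 6.75 tags at 41360 bp. Next was chr9:140783387-140783537 with 29.6 tags. Its H3K27me3 region held 444.6 tags over 8127 bp in control and 970.6 over 25406 bp in shEZH2. This member lay 10190 bp from a control peak of 31.5 tags, just past the limit for this class. On chromosome 4, chr4:9251767-9251917 and chr4:9218593-9218743 held 24.8 and 22.7 tags on wide H3K27me3 regions of control, 48898 and 9210 bp across.

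The members farthest from any control peak were all weak. The largest gap was 1526653 bp, at chr2:211815250-211815400, with 8.27 tags (4.27 to 14.4) and 17.39-fold over its surroundings. It lay on an H3K27me3 region of 15 tags over 582 bp in control and 23.2 over 1272 bp in shEZH2. At chr9:11618770-11618920 the gap was 1005656 bp, with 6.89 tags and an H3K27me3 region of 17.9 tags in shEZH2 only. On chromosome 4, chr4:169283484-169283634 and chr4:169401491-169401641 both held 8.27 tags. The first had no mark in any list. The second had an H3K27ac region of 81.4 tags over 1224 bp in control and 108.7 over 2279 bp in shEZH2.

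The highest folds over local background went with piled tags. The 4 members of highest fold, at 97.84, 46.78, 42.91 and 39.86, had clonal folds of 1.78, 1.76, 1.97 and 1.97. A clonal fold over 1.5 was found at only 10 members in all (0.274%) and at 9 shared peaks (0.194%). The first, chr5:20555569-20555719, held 18.6 tags (12.3 to 27.1), 567104 bp from the nearest control peak. The only histone region there was a narrow one of H3K27ac with 13.2 tags in control. Among the other 6 of the 10 highest, clonal folds were 0.89 to 1.22. These included chr6:89790290-89790440 with 10.3 tags and 30.57-fold. Its H3K27ac region held 305.7 tags over 2262 bp in control and 431.6 over 5808 bp in shEZH2. Also among the 6 was chr2:69614386-69614536 with 8.96 tags and 35.33-fold. The H3K27ac region there held 83.2 tags over 1098 bp in control and 134.8 over 2559 bp in shEZH2.

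**Figure D4:**
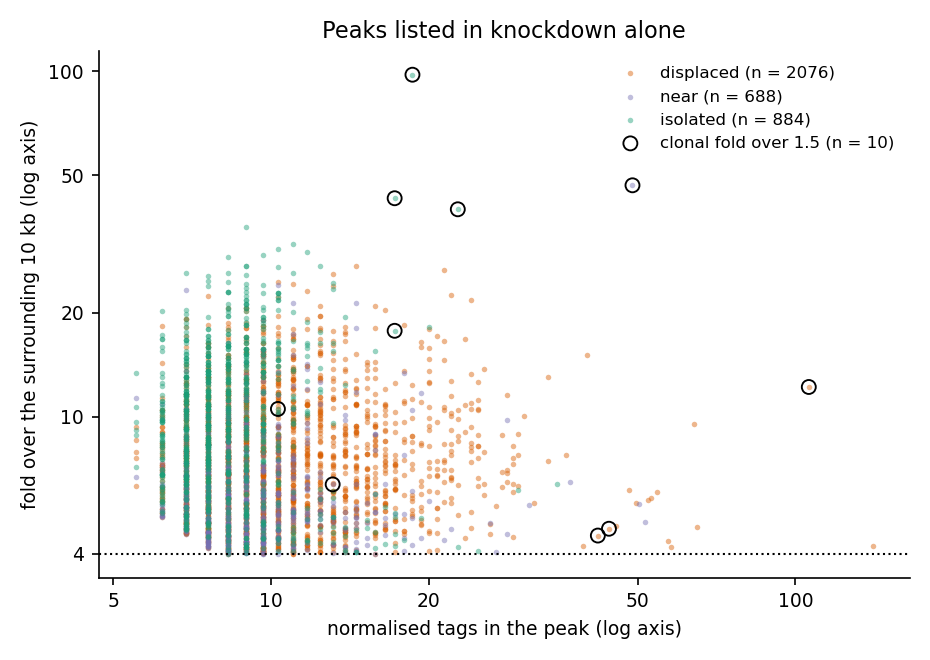
Normalised tags (horizontal, log axis) and fold over the surrounding 10 kb (vertical, log axis) of each EZH2 peak listed in knockdown alone, coloured by its gap to the control list. The dotted line is the 4-fold limit of the caller and circles mark the 10 peaks with a clonal fold over 1.5, which include the 4 highest folds.

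The members were spread over all 23 chromosomes considered. They fell into 2630 windows of 100 kb, of which 1958 held a single member, 29 held 5 or more, and 313 held no control EZH2 peak. The window with most, chr5 from 140.5 to 140.6 Mb, held 9 members with 9.65 to 15.2 tags. All were displaced and lay on control H3K27me3, among 16 shEZH2 and 17 control EZH2 peaks. In 3 other dense windows, singled out after their values were seen, every shEZH2 peak was a member. On chromosome 20 from 60.2 to 60.3 Mb all 8 shEZH2 peaks were members on H3K27me3, with 6.89 to 12.4 tags, and only 1 was displaced, although the control list had 7 EZH2 peaks there. On chromosome 19 from 3.8 to 3.9 Mb all 6 shEZH2 peaks were members and none was displaced, beside 6 control peaks. Of these, 4 lay on control H3K27me3. On chromosome 7 from 157.6 to 157.7 Mb all 6 were members, 2 of them displaced, beside 5 control peaks.

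Members lay near chromosome ends more often than shared peaks. Within 5 Mb of the outermost listed region of a chromosome arm lay 1087 members (29.8%, 28.3 to 31.3) and 22.3% (21.1 to 23.5) of shared peaks, a difference of 7.49 points (5.58 to 9.40). By class the shares were 24.4% (22.5 to 26.3) of displaced, 48.5% (44.8 to 52.3) of near and 27.9% (25 to 31) of isolated members. Near members thus had the highest share of the 3 classes. Control peaks not called again had a share of 24.6% (23.9 to 25.2). By chromosome, the share of considered peaks that were members ran from 37.4% (29.4 to 46.0) on chromosome 13 to 50.1% (45.2 to 55.0) on chromosome 19. Chromosome 19 also had the lowest share of displaced members, 40.4% (33.7 to 47.4) of 208. On chromosome 3 it was 68.2% (60.3 to 75.4) of 157. These 23 chromosomes were not tested against each other.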

How the data were processed

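The submitters' processing notes name BWA 0.6.1, hg19 and HOMER 4.1. Per the file headers, every list came from 1 library with no input control. EZH2 peaks were fixed windows passing a false discovery rate of 0.001 and at least 4-fold over the surrounding 10 kb. Control histone lists used windows of 150 bp and shEZH2 histone lists windows of 1000 bp, joined into regions, per the file headers. The deposited signal is a tag number per region, which the authors brought to a common 10000000 tags. The deposited score is HOMER's peak score. The deposited fold over local background and that of clonal pile-up (each a ratio) were used as descriptions. The deposited local p-value and the deposited focus ratio, a fraction of tags, were not used.

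Overlap meant at least 1 shared bp, and gaps were counted from edge to edge. Shares carry 95% exact binomial (Clopper-Pearson) intervals, differences Newcombe intervals, medians order-statistic intervals and single-peak tags exact Poisson intervals. All cover counting error only, and PCR duplicates may make tags dependent. No p-value was computed, as each group held 1 library. Comparisons at equal score used Mantel-Haenszel weights with a standard error (SE). Overlaps and gaps were checked on 9130 simulated peaks against brute force and bedtools. Members, classes and alternatives were chosen with earlier results of these data known. The minimum-spacing and clonal-fold alternatives were added after the data were seen. Named regions were the members with most tags, highest fold, largest or smallest gap to a control peak and most tags in each mark class, those at the edges of the rule, and the windows of 100 kb with most members. Annotation and sequence of hg19 were not used here, so gene lists, marker genes and sequence content were not analysed. Tools were matplotlib 3.10.9, scipy 1.17.1, numpy 2.4.6 and pandas 2.3.3 under Python 3.11.15.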

Additional observations from a re-analysis of the deposited data

How the results depend on the processing

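No paired analysis was possible because each group held 1 library. Each of 13 results was recomputed under its alternatives, 74 values in all, of which 41 stayed within the main interval. The difference in H3K27me3 share between members and shared peaks reversed, from -4.93 to 5.01 points, at equal score.

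The share of peaks listed in knockdown alone was 19.0% when a control peak within 1 kb counted as a match, 33.5% in the upper 50% by score and 42.5% with windows widened to 183 bp. With members in the upper 50% by score, displaced members were 70.3%, isolated 13.8%, control H3K27me3 73.7%, control H3K27ac 16.6%, shEZH2 H3K27me3 80.0%, shEZH2 H3K27ac 25.3% and no mark 3.34%. Without members closer than the stated control spacing these were 38.4% displaced, 34.7% isolated and 52.9% on control H3K27me3, and the H3K27me3 difference from shared peaks was -9.75 points. With no control peak within 1 kb, control H3K27me3 held 41.9%, control H3K27ac 26.7%, shEZH2 H3K27me3 53.2% and no list 15.3%. The median was then 8.27 tags, and the differences from shared peaks were -20.7 points for H3K27me3 and -4.25 for H3K27ac. With 50% of the peak covered, control H3K27me3 held 55.3% and control H3K27ac 22.7%. With a region within 1 kb, the shares were 64.6% and 28.6% for control, 68.5% and 34.8% for shEZH2 and 5.95% for no list. By shEZH2 histone lists, the H3K27me3 difference was -1.60 points from shared peaks and 36.2 points between displaced and isolated members. At equal score the latter was 28.7 points, and the H3K27ac difference from shared peaks -12.9. The cause of these shifts was not tested. Leaving out 5 Mb on either side of the longest gaps, autosomes alone and a clonal fold limit of 1.5 moved no value outside its interval.

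Most members rested on 10 to 16 tags, so single weak peaks carry wide counting intervals. Without an input library or a replicate, the number of members that another culture would list again is unknown.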
